A study of Mus musculus with 11 samples.

Results

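The Runx1, Runx3 and Cbfb loci were followed through maps of Foxp3, Elf1, Ets1 and Cbfb binding in mouse CD4 T cells, made by chromatin immunoprecipitation and sequencing (ChIP-seq). Their members were all deposited binding positions and Foxp3 peaks inside 3 windows of mouse build mm9: chr16:92590000-92880000 for Runx1, chr4:134660000-134760000 for Runx3 and chr8:107680000-107755000 for Cbfb. The windows held 397 of 1061984 deposited entries, namely 272 at Runx1, 55 at Runx3 and 70 at Cbfb. Of these, 8 were Foxp3 peaks and 389 were positions of the other factors, and 175 positions passed a false discovery rate (FDR) of at most 0.01, the limit used below unless another is named. The window limits were taken as given and were not checked against mm9 gene models.

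The samples were CD4 T cells of mice about 8 weeks old, taken from lymph nodes and spleen and sorted by a green fluorescent protein that reports Foxp3. Foxp3-positive cells, called Treg, gave 3 Foxp3 libraries, of which 2 were technical repeats of 1 sample, that the authors combined into a single peak list, and, with 1 library per factor, maps of Cbfb, Elf1 and Ets1. From Foxp3-negative cells, called CD4, 1 Elf1 and 1 Ets1 library were used. Neither strain nor reporter allele is given in the sources used here. Antibodies were a custom polyclonal for Foxp3 per the labels, and bought from a supplier for the other factors. With 1 library in each Elf1, Ets1 and Cbfb group and a combined Foxp3 list, no difference below has a replicate check. Intervals cover counting error only. At this FDR the genome-wide lists had 121632 Cbfb positions in Treg. Elf1 had 157731 in Treg and 53580 in CD4, and Ets1 had 61761 in Treg and 42040 in CD4, beside 2886 Foxp3 peaks. Read depth is unknown, so list length and depth cannot be told apart.

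Runx1 and Runx3 are transcription factors that bind DNA through a shared Runt domain, and Cbfb is the partner that does not touch DNA itself but strengthens the binding of either. In T cells, Runx proteins silence Cd4 in the CD8 lineage, and in regulatory T cells Runx1 and Cbfb take part in a complex with Foxp3 and help to keep Foxp3 expressed. Elf1 and Ets1 belong to the ETS family, whose members read a GGAA core, and Foxp3 is a forkhead factor. The 3 loci therefore hold the genes of the Runx complex itself, and the Cbfb library maps positions of that complex's shared subunit in Treg cells.

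Annotated start sites were taken from RefSeq on build GRCm38.p6, in which Runx1 (gene ID 12394) is on the minus strand and Runx3 (12399) and Cbfb (12400) are on the plus strand. All 3 genes matched, with an upstream and a downstream start site each for Runx1 and Runx3 and a single one for Cbfb. The 250 bases before the upstream or single start are shown because they are the regulatory sequences of the genes under study. Coordinates are those of GRCm38.p6 and cannot be set beside the mm9 positions given later, so whether a peak covers these bases was not tested. Capitals mark the words TGTGGT or TGCGGT (Runx), AGGAAG or CGGAAG (ETS) and TGTTTA or TGTTTG (forkhead), searched on both strands.
Runx1, upstream start, chr16:92826075-92826324, minus strand: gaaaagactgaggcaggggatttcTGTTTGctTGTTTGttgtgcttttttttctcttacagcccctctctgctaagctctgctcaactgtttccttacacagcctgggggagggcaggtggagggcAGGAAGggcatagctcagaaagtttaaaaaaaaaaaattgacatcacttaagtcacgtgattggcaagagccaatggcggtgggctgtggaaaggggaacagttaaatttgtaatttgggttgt
Runx3, upstream start, chr4:135120395-135120644, plus strand: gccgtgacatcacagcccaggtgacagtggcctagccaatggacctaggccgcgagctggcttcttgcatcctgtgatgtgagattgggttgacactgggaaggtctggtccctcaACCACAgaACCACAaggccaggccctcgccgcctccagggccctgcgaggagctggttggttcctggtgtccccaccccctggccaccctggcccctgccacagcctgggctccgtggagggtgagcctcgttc
Cbfb, single start, chr8:105170424-105170673, plus strand: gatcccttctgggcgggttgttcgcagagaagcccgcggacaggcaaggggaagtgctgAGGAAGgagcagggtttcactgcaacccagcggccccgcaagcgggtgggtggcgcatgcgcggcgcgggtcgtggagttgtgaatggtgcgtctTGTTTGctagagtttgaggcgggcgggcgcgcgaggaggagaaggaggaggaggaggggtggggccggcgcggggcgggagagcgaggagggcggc

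The upstream Runx3 promoter held 2 Runx words next to each other, at bases -134 and -126 from the start, and no ETS or forkhead word. The upstream Runx1 promoter held 1 ETS word at -124 and 2 forkhead words at -226 and -218, and no Runx word before its start. The Cbfb promoter held 1 ETS word at -191 and 1 forkhead word at -96. The 2 downstream promoters held none of these words. Of 32851 promoters in the table, 18.6% had a Runx word in the same 250 bases, 39.2% an ETS word and 25.3% a forkhead word. For 2 or more words the shares were 2.01% for Runx and 5.75% for forkhead. These are letter matches, not bound sites.

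The longest run of bases shared by the upstream Runx1 and Runx3 sequences, over 250 bases before and 50 after the start, was 18 bases long and held the Runx words as a pair. It is shown because the genes for DNA-binding partners of Cbfb carry the Runx complex's own word there.
Shared by Runx1 (from base 27 after the start) and Runx3 (from base -136): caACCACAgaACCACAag
Only 4 promoters of the table held this run on either strand. They were those of Runx1, Runx2, Runx3 and Gm16225, a gene model on the same chromosome as Runx3 and on the opposite strand. The Runx1 and Runx3 promoters hold it by construction. Whether the Gm16225 promoter overlaps that of Runx3 was not tested.

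At the Runx1 locus, ETS-family positions were dense in all 4 Elf1 and Ets1 libraries, and Foxp3 peaks were grouped. The window held 36 Treg Elf1, 23 CD4 Elf1, 26 Treg Ets1 and 19 CD4 Ets1 positions. Treg Elf1 reached 12.4 positions per 100 kb (95% Poisson interval 8.69 to 17.2), against 5.97 over the whole list. CD4 Elf1 reached 7.93 (5.03 to 11.9), against 2.03. Both Elf1 densities lay above the whole-list value beyond counting error. Treg Ets1 reached 8.97 (5.86 to 13.1), against 2.34, and CD4 Ets1 reached 6.55 (3.94 to 10.2), against 1.59. Treg Cbfb had 19 positions, or 6.55 per 100 kb (3.94 to 10.2), and the whole-list value of 4.60 lay inside that interval. Windows of the same length laid end to end over the genome, gene-poor regions included, held at least as many Treg Elf1 positions in 4.26% of 9088 cases. For CD4 Elf1 the share was 3.20%, for Treg Ets1 1.95%, for CD4 Ets1 3.98% and for Cbfb 19.3%.

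**Figure D1:**
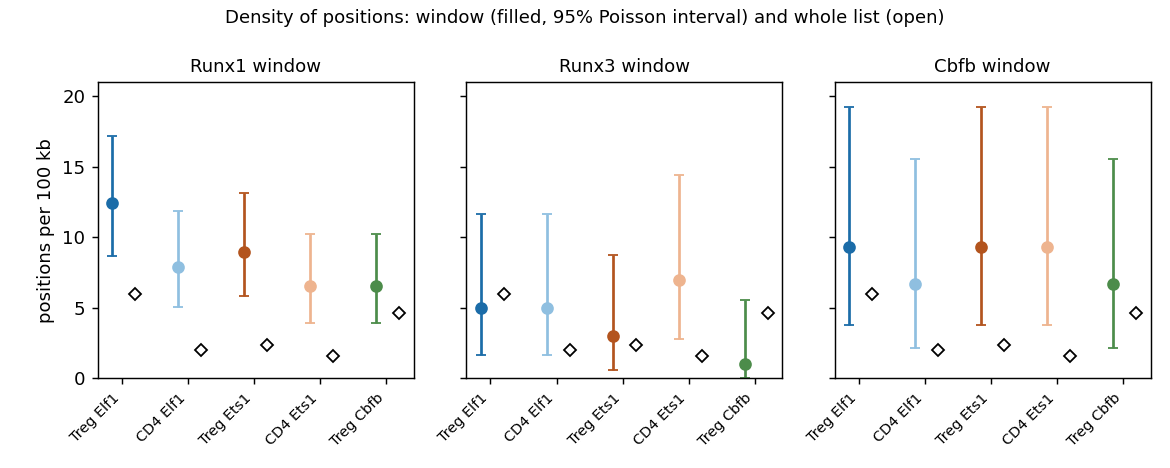
Positions per 100 kb (y axis) for each library (x axis) in the Runx1, Runx3 and Cbfb windows (filled points, bars are 95% Poisson intervals) and over the whole list of that library (open diamonds). The Elf1 and Ets1 points of the Runx1 window lie above their diamonds with intervals that exclude them, while Cbfb in the Runx3 window, at 1 per 100 kb, lies below its diamond at 4.60.

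Foxp3 had 7 peaks in the Runx1 window, 1 in the Cbfb window and none in the Runx3 window. The Runx1 peaks came to 2.41 per 100 kb (0.97 to 4.97), against 0.109 over the genome. Only 30 of the 9088 windows of that length (0.33%) held 7 or more. All 7 lay between chr16:92767714-92767914 and chr16:92826313-92826513, on the high-coordinate side that runs towards the 5′ end of a gene on the minus strand. The lower 177.714 kb of the window held no peak. The sixth and the seventh overlapped by 71 bp, so the 8 peaks of the 3 windows mark 7 places.

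Most of these Foxp3 peaks carried ETS factors in both cell types, and few carried Cbfb. Within 200 bp of the interval, a Treg Elf1 position was present at 5 of the 8 peaks (85.2% of all 2886 Foxp3 peaks) and a CD4 Elf1 position at 7 (88.9% of all). For Ets1 the counts were 7 in Treg (83.5% of all) and 7 in CD4 (89% of all). A Cbfb position was present at 1 of the 8 (28.1% of all). All 4 Elf1 and Ets1 libraries had a position at 5 of the 8, against 66.1% over the whole peak list, and all 5 libraries at 1 of the 8, against 20.7%. With 8 peaks, these counts do not separate the loci from the whole list.

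**Figure D2:**
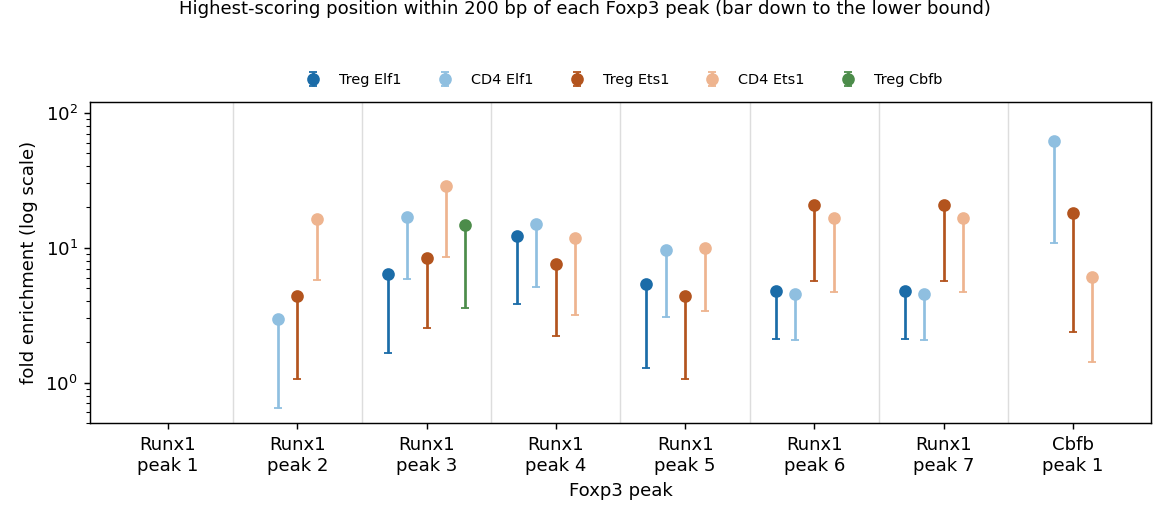
Fold enrichment on a log axis (y axis) of the highest-scoring position of each library within 200 bp of each of the 8 Foxp3 peaks (x axis, in order of coordinate within a window), with a bar down to the authors' lower bound. The first Runx1 peak has no position, the third is the only peak with a Cbfb point (14.8-fold), and the Cbfb-locus peak has CD4 Elf1 at 61.3-fold and no Treg Elf1 point.

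The third Runx1 peak, chr16:92801919-92802119, carried all 5 libraries within a span of 82 bp. Treg Cbfb had a fold enrichment of 14.8 there (lower bound 3.59) at base 92801973, and its score ranked 283 among 121632 Cbfb positions. Treg Elf1 was at 6.36-fold (lower bound 1.64) and CD4 Elf1 at 16.9-fold (5.86). Treg Ets1 was at 8.39-fold (2.52) and CD4 Ets1 at 28.7-fold (8.49). The CD4 Elf1 position lay 19 bp, the CD4 Ets1 position 10 bp and the Treg Elf1 position 15 bp from the Cbfb position. No other Cbfb position of the 3 windows scored as high. Over the genome, 0.38% of 371172 sites held all 5 libraries, where a site is a chain of positions of any library with gaps of at most 200 bp. Among Foxp3 peaks alone, 20.7% of 2886 had all 5 libraries within 200 bp.

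The second Runx1 peak, chr16:92787092-92787292, carried Ets1 in both cell types and Elf1 in CD4 alone. CD4 Ets1 reached rank 583 of 42040 there. Its fold enrichment was 4.39 in Treg (lower bound 1.05) and 16.3 in CD4 (5.77), at bases 10 bp apart. Elf1 had no Treg position of any FDR within 200 bp of the peak. Its CD4 position had an FDR of 3.02e-05 and was 2.98-fold enriched, with a lower bound of 0.644, which is under 1.

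The fourth and the fifth Runx1 peaks each had all 4 Elf1 and Ets1 libraries and no Cbfb. At the fourth, chr16:92818881-92819081, Treg Elf1 reached 12.2-fold and CD4 Elf1 14.9-fold. Ets1 reached 7.59-fold in Treg and 11.7-fold in CD4. At the fifth, chr16:92822090-92822290, Elf1 was at 5.38-fold in Treg and 9.61-fold in CD4, and Ets1 at 4.39-fold in Treg and 9.95-fold in CD4. At both peaks the highest-scoring position of each factor had the lower fold enrichment in Treg.

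The sixth and seventh peaks, chr16:92826184-92826384 and chr16:92826313-92826513, held the highest Treg Ets1 score of the 3 windows. That position, at 92826250, ranked 1472 of 61761 and was 20.6-fold enriched in Treg (lower bound 5.63), against 16.6-fold in CD4 (4.69). Treg Elf1 had a position at 92826339 with 56.3-fold enrichment (9.44), the highest Elf1 fold of the window, and another at 92826553 with 4.75-fold (2.12). The nearest CD4 Elf1 position to either was the same base, 92826467, with 4.53-fold (2.05).

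The first Runx1 peak, chr16:92767714-92767914, had no position of any library within 200 bp at this FDR. All 4 Elf1 and Ets1 libraries had a weaker position there, with FDRs of 0.0149 for Treg Elf1, 0.0248 for CD4 Elf1, 0.0254 for Treg Ets1 and 0.082 for CD4 Ets1. A stronger Elf1 pair lay just beyond the distance. It was 36.7-fold in Treg (lower bound 5.70), 213 bp from the interval, and 7.18-fold in CD4 (1.60), 327 bp from it. The nearest Cbfb position, at 92767476, was 238 bp from the interval and 4.36-fold enriched. Whether this peak had positions therefore depended on the distance and the FDR limit.

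Binding at Runx1 was concentrated near the peaks of highest coordinate. The stretch chr16:92810000-92830000, 20 kb long and picked after its values had been seen, held 45 of the 123 positions of the window (36.6%) and 10 of its 19 sites with more than 1 library. It held 15 Treg Elf1, 7 CD4 Elf1, 11 Treg Ets1, 7 CD4 Ets1 and 5 Treg Cbfb positions. The highest Treg Elf1 score of the window lay here at 92815474, with 4.08-fold enrichment in Treg, against 2.02-fold in CD4 at 92815494. The second Treg Ets1 score lay at 92815114 (5.42-fold), with CD4 Ets1 at 6.07-fold 44 bp away. The third, at 92824454 (12.6-fold), had a CD4 Ets1 position 44 bp away only at an FDR of 0.0833.

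**Figure D3:**
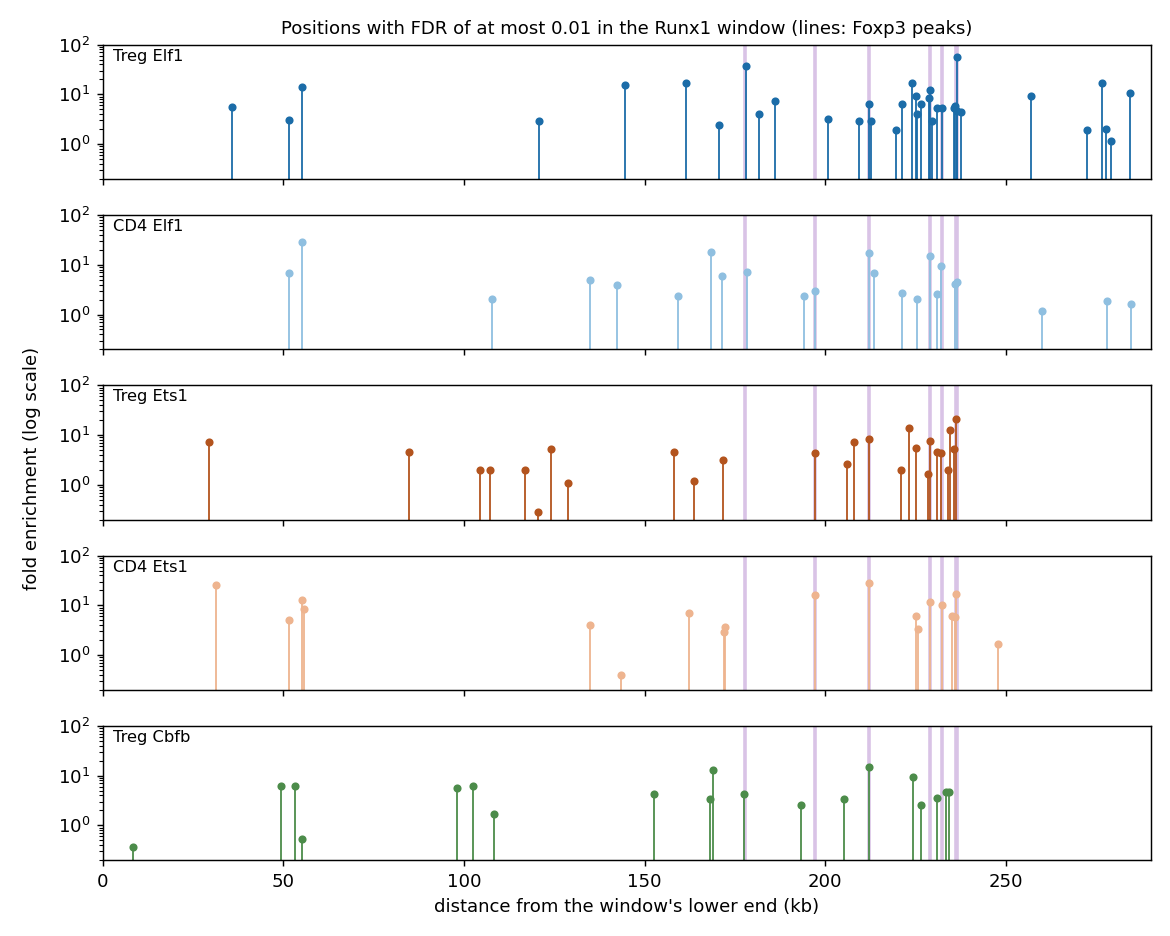
Fold enrichment on a log axis (y axis) of each position with an FDR of at most 0.01 in the Runx1 window, 1 panel per library, against distance in kb from the window's lower end (x axis); pale lines mark the 7 Foxp3 peaks, of which the last pair overlap. Positions of all libraries crowd between 220 and 240 kb, and the lower 177.714 kb has positions but no Foxp3 peak.

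Away from Foxp3, the strongest CD4 Elf1 score of the Runx1 window lay far down the locus. At chr16:92645142 CD4 Elf1 was 29.3-fold enriched (lower bound 8.47, rank 4682 of 53580), and Treg Elf1 was 13.9-fold (3.36) at 92645256. CD4 Ets1 was 12.5-fold there, and Treg Ets1 had only a position at an FDR of 0.0515. A Cbfb position in the same site had an enrichment of 0.523, which is under 1. The nearest Foxp3 peak to this Elf1 position was 122572 bp away. The second CD4 Elf1 score, at 92641485, was 6.96-fold (3.35), with Treg Elf1 at 3.10-fold 12 bp away and CD4 Ets1 at 5.14-fold. No Treg Ets1 position of any FDR lay within 1 kb of that CD4 Ets1 position.

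Of the 19 Cbfb positions of the Runx1 window, 6 had an Elf1 or Ets1 position of either cell type within 200 bp, and 1 was at a Foxp3 peak. Over all 3 windows the count was 6 of 25, against 8.74% of the whole Cbfb list, and for Foxp3 it was 1 of 25, against 0.65%. By library, the 25 had Treg Elf1 at 3 (5.14% of the list), CD4 Elf1 at 4 (2.76%), Treg Ets1 at 3 (2.97%) and CD4 Ets1 at 2 (2.58%). The second Cbfb score of the window, at 92759028, was 13.1-fold with a lower bound of only 1.24, and ranked 992. The third, at 92820915, was 3.56-fold (1.16) and ranked 3306. It shared its site with Treg Elf1 at 5.24-fold, Treg Ets1 at 4.66-fold and CD4 Elf1 at 2.60-fold, but no Foxp3 peak, the nearest being 1175 bp away. Of the 19 positions, 5 were among the highest 10% of Cbfb scores.

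The Runx3 locus had 21 positions in 100 kb and no Foxp3 peak. It held 5 Treg Elf1, 5 CD4 Elf1, 3 Treg Ets1, 7 CD4 Ets1 and 1 Treg Cbfb position. CD4 Ets1, at 7 per 100 kb (2.81 to 14.4), exceeded its whole-list density of 1.59 beyond counting error, and 5.28% of windows of that length held at least as many. The intervals of Treg Elf1 (1.62 to 11.7), CD4 Elf1 (1.62 to 11.7), Treg Ets1 (0.619 to 8.77) and Cbfb (0.0253 to 5.57) included theirs. The 7 CD4 Ets1 positions had a median fold of 4.68, against 4.61 over the whole list. None of the 7 was among the highest 10% of scores. At an FDR of at most 0.001, 2 remained, and the whole-list density at that limit was not computed. For Foxp3, a count of 0 allows up to 3.69 peaks per 100 kb.

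The sites of the Runx3 window held no more than 2 libraries each. An Elf1 site of both cell types lay at chr4:134735263 in Treg, with 8.97-fold enrichment (lower bound 1.88), and at 134735231 in CD4, with 8.28-fold (1.94). An Ets1 site of both cell types lay near the upper end, at 134759306 in Treg, with 22.0-fold (3.14), and at 134759308 in CD4, with 32.8-fold (5.62). It was the only Ets1 site common to Treg and CD4 in this window. The third shared site, at 134676216, was seen in CD4 alone, with Elf1 at 6.96-fold (2.09) and Ets1 at 1.91-fold (0.493). No Treg Elf1 position of any FDR lay within 1 kb of it. On the Treg side, Ets1 at 134738350 was 18.0-fold (2.39) with no CD4 Ets1 position of any FDR within 1 kb.

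The single Cbfb position of the Runx3 window, at 134755492, was 5.75-fold enriched (1.38) and ranked 5239 of 121632. It had no Elf1 or Ets1 position within 200 bp. A Foxp3 peak lay just outside the window, at chr4:134762248-134762448, 2.25 kb beyond its upper end, and had positions of all 5 libraries within 200 bp. Whether it belongs to Runx3 or to a neighbour was not tested. The nearest protein-coding neighbours of Runx3 in the RefSeq table are Syf2 and Clic4.

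**Figure D4:**
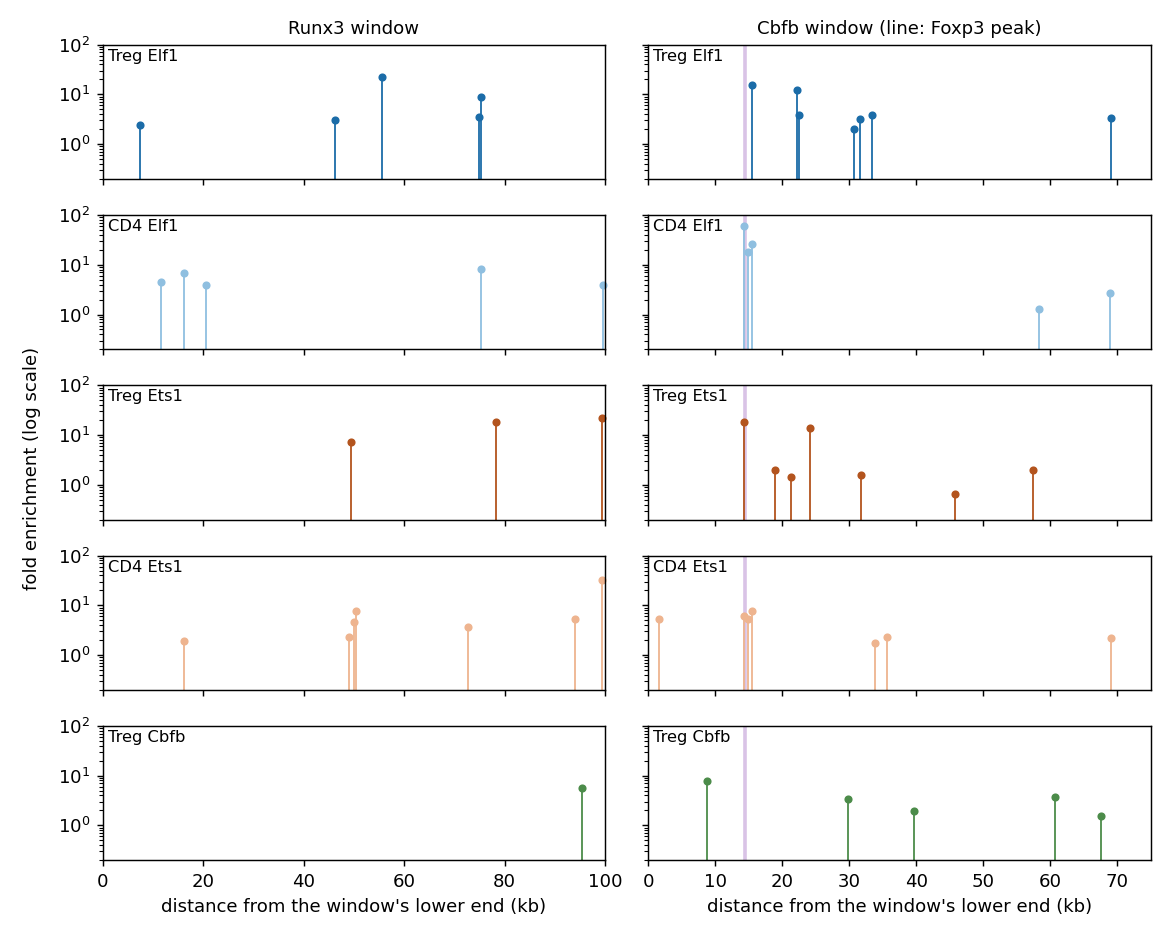
Fold enrichment on a log axis (y axis) of each position with an FDR of at most 0.01 in the Runx3 window (left) and the Cbfb window (right), 1 panel row per library, against distance in kb from the window's lower end (x axis); the pale line marks the Foxp3 peak. Cbfb has a single point in the Runx3 window, and the highest CD4 Elf1 point of the Cbfb window, at 61.3-fold, lies on the line.

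The Cbfb locus had 31 positions in 75 kb, with the strongest ETS binding on the low-coordinate side, which is the 5′ side of a gene on the plus strand. It held 7 Treg Elf1, 5 CD4 Elf1, 7 Treg Ets1, 7 CD4 Ets1 and 5 Treg Cbfb positions. CD4 Elf1 (6.67 per 100 kb, 2.16 to 15.6), Treg Ets1 (9.33, 3.75 to 19.2) and CD4 Ets1 (9.33, 3.75 to 19.2) exceeded their whole-list densities of 2.03, 2.34 and 1.59. Of windows of that length, 8.93% held at least as many CD4 Elf1, 3.89% Treg Ets1 and 3.29% CD4 Ets1 positions. Treg Elf1 (9.33, 3.75 to 19.2) and Cbfb (6.67, 2.16 to 15.6) had intervals that included theirs, 5.97 and 4.60. At an FDR of at most 0.001, CD4 Elf1, Treg Ets1 and CD4 Ets1 each had 2 positions left in this window. Whole-list densities were not computed at that limit.

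The Foxp3 peak of this locus, chr8:107694321-107694521, carried Ets1 in both cell types but Elf1 in CD4 alone. CD4 Elf1 was 61.3-fold enriched (lower bound 10.8, rank 8642) at 107694380, the highest Elf1 fold of the 3 windows. The nearest Treg Elf1 position of any FDR was 1056 bp away. Ets1 was 18.0-fold in Treg (2.39) and 6.07-fold in CD4 (1.42). The Treg value was the higher, although the Treg position ranked only 51655 of 61761 by score. In the Runx1 window the Treg value was the lower in 6 of 7 Ets1 pairs.

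About 1 kb further on, Elf1 was strong in both cell types. The Treg Elf1 position at 107695436 was 15.5-fold enriched (3.86) and ranked 5484 of 157731. The CD4 Elf1 position at 107695444 was 26.0-fold (7.43) and ranked 5190 of 53580. CD4 Ets1 was 7.69-fold at 107695491, and Treg Ets1 had only a position at an FDR of 0.0771 there. Between these sites CD4 Elf1 had an 18.2-fold position (2.60) at 107694916 and CD4 Ets1 a 5.26-fold position (1.17) at 107694964, with no Treg position within 200 bp. Together, the lower 10 kb bin from 107690000 to 107700000 held 9 of the 31 positions.

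Elsewhere in the Cbfb locus, few positions combined a high score with a high fold. Treg Ets1 had its 3 highest scores at 107698958, 107737501 and 107701289, with folds of 2.00, 2.00 and 1.43 and lower bounds all under 1. The highest Treg Ets1 fold outside the Foxp3 peak was 14.0 (1.65), at 107704228. Elf1 was 3.34-fold at 107749089 in Treg and 2.76-fold at 107749019 in CD4. The second Treg Elf1 score, at 107713343, was 3.78-fold. None of the 5 Cbfb positions of the Cbfb locus had an Elf1 or Ets1 position within 200 bp or lay at the Foxp3 peak. Their best rank was 22707 of 121632, and the highest 3 scores had folds of 3.36, 1.92 and 1.57, while the highest fold was 7.84, at 107688727. All 5 had a lower bound under 1.

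Treg and CD4 were compared within Elf1 and within Ets1 at common positions, meaning a Treg position with a CD4 position of the same factor within 200 bp. For Elf1, 17 of 48 Treg positions in the 3 windows had a CD4 counterpart, against 11.4% of the whole Treg list. Of 33 CD4 positions 16 had a Treg counterpart, against 32.5%. For Ets1 the counts were 9 of 36 in Treg, against 18.7%, and 9 of 33 in CD4, against 27.7%. Positions with no position of the same factor of any FDR within 1 kb in the other cell type numbered 13 of 48 for Treg Elf1 (65% of the whole list), 14 of 33 for CD4 Elf1 (49.4%), 11 of 36 for Treg Ets1 (51.7%) and 10 of 33 for CD4 Ets1 (39.2%).

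Ets1 was mostly lower in the Treg library at the Runx1 locus, as over the whole list. The log2 ratio of Treg to CD4 fold enrichment had a median of -0.63 over 7 common positions at Runx1 (SD over positions 0.86), and 6 of the 7 were negative. With all deposited positions, whatever their FDR, that median was 0.029, so its direction depended on the FDR limit. Its values at the Foxp3 peaks ran from -1.89 at the second peak and -1.78 at the third to 0.32 at the sixth and seventh. The whole-list median was -0.44 over 11551 common positions. Runx3 had 1 common Ets1 position, at -0.58, and the Cbfb locus 1, at 1.57. Past a log2 ratio of 1 in either direction, 3 of 9 were below -1 (28.5% of the whole list) and 1 of 9 was above 1 (8.07%).

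Elf1 ratios at the Runx1 locus went in both directions. Over 14 common positions the median log2 ratio was 0.33 (SD over positions 1.57), against a whole-list median of -0.17. With only the 10000 highest scores of each library, the pair at the third Foxp3 peak alone was left, at -1.41. With the 20000 highest scores the median was 0.54. The lowest ratio, -1.41, was at the third Foxp3 peak. The highest, 3.64, was at the sixth and seventh, but a second Treg Elf1 position paired with the same CD4 position had 0.069. In the 3 windows, 6 of 17 were above 1 (13.8% of the whole list) and 3 of 17 below -1 (19.4%). The Runx3 window had 1 common Elf1 position at 0.12, and the Cbfb window had 2, at -0.74 and 0.27. Depth and control of the libraries are unknown, so the ratios describe these libraries.

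**Figure D5:**
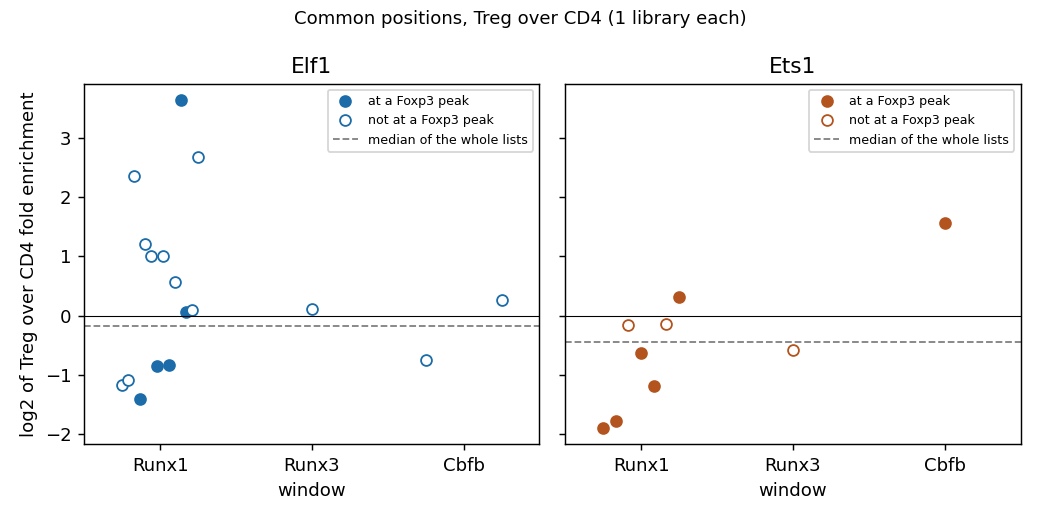
Log2 ratio of Treg over CD4 fold enrichment (y axis) at each common position of Elf1 (left) and Ets1 (right) in the 3 windows (x axis), filled where the position lies within 200 bp of a Foxp3 peak; the dashed line is the median of the whole lists. Runx1 Elf1 ratios spread from -1.41 to 3.64, while 6 of 7 Runx1 Ets1 ratios lie below 0.

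When positions of the 5 libraries were joined into sites, a smaller share of sites at the loci than in the whole lists held a single library. The 3 windows held 123 sites, of which 96 (78.0%) had a single library, against 90% of 371172. Elf1 and Ets1 of both cell types met in 5 sites, all in the Runx1 window, against 1.85% of all sites. Of these 5, 4 lay at a Foxp3 peak, against 1810 of 6856 such sites in the whole lists. The remaining site, between 92825568 and 92825872, lay 312 bp from the nearest peak. At least 1 factor other than Foxp3 and a Foxp3 peak were joined at 6 sites, against 0.861% of all sites.

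Fold values came in coarse steps. The 121632 Cbfb positions took only 203 distinct fold values (rounded to 4 decimals), and 14 of the 25 Cbfb positions in the windows shared theirs with another. A lower bound under 1 was found for 17 of these 25, against 63.0% of the Cbfb list, and for 18 of 36 Treg Ets1 positions, against 57.7% of that list. For Treg Elf1 it was 17 of 48, against 47.0%. CD4 Elf1 had 15 of 33, against 44.7%, and CD4 Ets1 had 9 of 33, against 38.8%.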

How the data were processed

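The submitters' processing notes name Bowtie 0.12.7 and the build mm9. The caller, its control and its thresholds are not given in the sources used here. Per the file headers, each of the 5 deposited lists gives a score, a false discovery rate (read as a q-value) and 2 estimates of enrichment, a lower bound and a maximum likelihood value, and the maximum likelihood value is the fold printed. The Foxp3 list, which the authors made from combined replicates per the labels, gives intervals of 200 bp with no score.

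Each window's positions were counted at an FDR limit of 0.01 and matched within 200 bp. Ranks are by score within that list. Whole-list densities used the highest coordinate in any list as each chromosome's length. Poisson intervals were exact at 95%. No test was made, since each Elf1, Ets1 and Cbfb group had 1 library and the Foxp3 replicates were combined in a single list. The matching functions were tested on simulated data. The windows, lists and rules were chosen with earlier results of these data known. A rule picked positions to name, first all Foxp3 peaks and the 3 highest scores per library and window. It also picked the highest scores without a counterpart within 1 kb, sites with Foxp3, all 4 ETS lists and Cbfb, and the extreme ratios. Not every position that the rule picked is named above. Positions outside this rule, such as the stretch at Runx1 and the neighbours of named positions, were chosen after their values were seen. A planned count at other Runx pathway genes was not run, because no mm9 annotation was used here. The input libraries and the CD4 Cbfb library were not analysed here. Sequences and gene names are from RefSeq, GRCm38.p6. Calculations used Python 3.11.15, numpy 2.4.6, pandas 2.3.3, scipy 1.17.1 and matplotlib 3.10.9.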

Additional observations from a re-analysis of the deposited data

How the results depend on the processing

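The direction of 3 medians differed between lists, for Elf1 only where very few pairs were left. With the 10000 highest scores of each library the median log2 ratio for Elf1 over the 3 windows was -1.08, from 2 pairs, against 0.12 as reported. At Runx1 the pair at the third Foxp3 peak alone was left, at -1.41, against a median of 0.33 as reported. With the 20000 highest scores these Elf1 medians were 0.069 and 0.54. With all deposited positions the median log2 ratio for Ets1 at Runx1 was 0.029, against -0.63 as reported. Counts followed list length by construction. At an FDR of at most 0.001 the Runx3 window had 12 positions, the Cbfb window 15, the windows 69 sites and 16 Cbfb positions. With all deposited positions the windows of Runx1, Runx3 and Cbfb had 265, 55 and 69, with 283 sites, 10 of them with Elf1 and Ets1 of both cell types, 24 Treg Ets1 positions with a counterpart, 11 Cbfb positions with an ETS factor and 12.5% of Runx1 positions in the richest 10 kb. The 10000 highest scores gave 26, 2 and 3 positions, 22 sites, 1 of them with Elf1 and Ets1 of both cell types, 2 Elf1 and 3 Ets1 counterparts, and 6 Cbfb positions, 1 with an ETS factor. Foxp3 peaks then held Treg Elf1 at 3, CD4 Elf1 at 3, Treg Ets1 at 4 and CD4 Ets1 at 3. The 20000 highest gave 52, 7 and 8 positions, 39 sites, 2 of them with Elf1 and Ets1 of both cell types, 7 Elf1 counterparts, 8 Cbfb positions, Treg Elf1 at 3 Foxp3 peaks and 28.8% in the richest 10 kb. A distance of 100 bp left 3 sites with Elf1 and Ets1 of both cell types, and 500 bp gave Cbfb at 2 Foxp3 peaks. Windows widened by 10 kb gave 32 positions at Runx3 and Cbfb at 2 Foxp3 peaks. The richest 20 kb bin held 36.6%. Merging overlapping Foxp3 intervals, chosen after seeing the data, gave 7 peaks. No paired analysis was possible because the Elf1, Ets1 and Cbfb libraries carry no replicate numbers and the Foxp3 replicates were deposited as 1 combined list. Depth and control are not given in the sources used here, so differences in list length and in binding cannot be told apart.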
